A study of Mus musculus with 6 samples.

Results

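The genes described here are the zinc finger genes of the mouse that carry a bare Zfp number as their symbol, such as Zfp36 or Zfp367. They were chosen by name alone, as every row of the deposited count table whose symbol is Zfp followed by digits and nothing else, which gave 291 of 11922 genes. CD8+ T cells from the spleens of C57BL6/J mice were activated with anti-CD3/anti-CD28 Dynabeads and recombinant human IL-2 at 100 units/ml, and their RNA was sequenced on day 7. The vehicle group (3 libraries) received water and the AOA group (3 libraries) received 0.25 mM AOA throughout, with a wash after 72 hours. AOA (aminooxyacetic acid) inhibits PLP-dependent enzymes, which need vitamin B6 in its active form as a cofactor. The same 3 mice, numbered 1 to 3 by the labels, gave cells to both groups.

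Most Zfp genes encode proteins with C2H2 zinc fingers, short repeats folded around a zinc ion, of which a row of several can read a stretch of DNA. Many also carry a KRAB domain, which recruits TRIM28 (KAP1) and, through it, the histone H3 lysine 9 methyltransferase SETDB1, a route best known for the silencing of transposable elements. The name is also given to proteins that do other work, such as the mRNA decay factor Zfp36, since it describes a protein fold and not a function. A search of translated transcripts found a KRAB A box in 171 of the 291 genes and no such box in 119, and 1 gene (Zfp783) had no coding transcript. All of the 171 held at least 1 C2H2 finger except Zfp972, which was not called and is counted with the KRAB genes. The KRAB genes had a median of 12 C2H2 fingers and the others a median of 6.0.

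Total counts were between 12881962 and 18934869 in the vehicle libraries and between 18696114 and 21997078 in the AOA libraries. Levels are given as CPM (counts scaled to a common library size by TMM), and differences as the log2 fold change of AOA over vehicle with its standard error (SE). A gene is called raised or lowered where the adjusted p of edgeR's quasi-likelihood test over all 11759 genes tested was under 0.05. The defining markers of CD8+ T cells were well detected, and 2 of 6 were raised. Cd8a was at 654 to 914 CPM with vehicle and 1455 to 1700 CPM with AOA, Cd3e at 370 to 459 and 299 to 382 CPM, Cd3g at 491 to 608 and 395 to 479 CPM, and Lck at 903 to 1088 and 882 to 1082 CPM. The summed level of 4 CD4 T cell markers was 158 to 210 CPM with vehicle and 33.0 to 54.3 CPM with AOA. That of 4 myeloid markers was 55.5 to 67.5 CPM and 4.18 to 7.82 CPM, with Lyz2 at 0 to 1.16 CPM in any library. Itgam made up most of the myeloid sum with vehicle, at 40.5 to 52.9 CPM, and was at 0.598 to 2.11 CPM with AOA. Cd68 was at 13.3 to 15.2 CPM with vehicle and 3.31 to 4.49 CPM with AOA. The 4 B cell markers summed to 12.6 to 16.6 CPM with vehicle and 22.6 to 30.7 CPM with AOA, of which Cd79b made up most, and the 3 NK cell markers to 145 to 308 CPM and 128 to 213 CPM. Single markers went their own way within these sums: Foxp3, in the CD4 list, was at 11.0 to 15.9 CPM with vehicle and 15.5 to 18.3 CPM with AOA, and Klrb1c, in the NK list, was at 41.7, 111 and 20.1 CPM with vehicle and 6.99, 11.0 and 3.38 CPM with AOA, while Eomes was at 125 to 194 CPM and 121 to 201 CPM. The part of these shifts in the results below was not tested. In bulk RNA, fewer cells of a type and less RNA per cell cannot be told apart.

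Zfp genes were rarely raised by AOA, whereas their share of lowered genes was near that of all genes. Of the 289 Zfp genes that passed the filter on low counts, 17 were raised (5.88%), 83 were lowered (28.7%) and 189 were not called (65.4%). Over all genes tested, 26.2% were raised, 26.8% were lowered and 47.0% were not called. The 2 Zfp genes below the filter were Zfp618, with 2, 0 and 2 counts with vehicle and 1, 1 and 0 with AOA, and Zfp941, with 3, 16 and 10 counts with vehicle and 2, 4 and 1 with AOA. With a log2 fold change of at least 1 in size also required, 6 Zfp genes were raised and 39 lowered, where 12.1% and 14.1% of all genes tested were. The median log2 fold change of the Zfp genes was -0.26 (quartiles -0.65 and 0.10), against -0.02 (quartiles -0.59 and 0.54) over all genes tested. Of the Zfp genes, 193 (66.8%) had a negative log2 fold change, as did 51.2% of all genes tested. A log2 fold change of less than 0.5 in size was found in 172 Zfp genes (59.5%) and in 45.7% of all genes tested. The difference in spread between the distributions lay mostly on the raised side, as the lower quartiles were -0.65 and -0.59 and the upper quartiles 0.10 and 0.54.

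**Figure D1:**
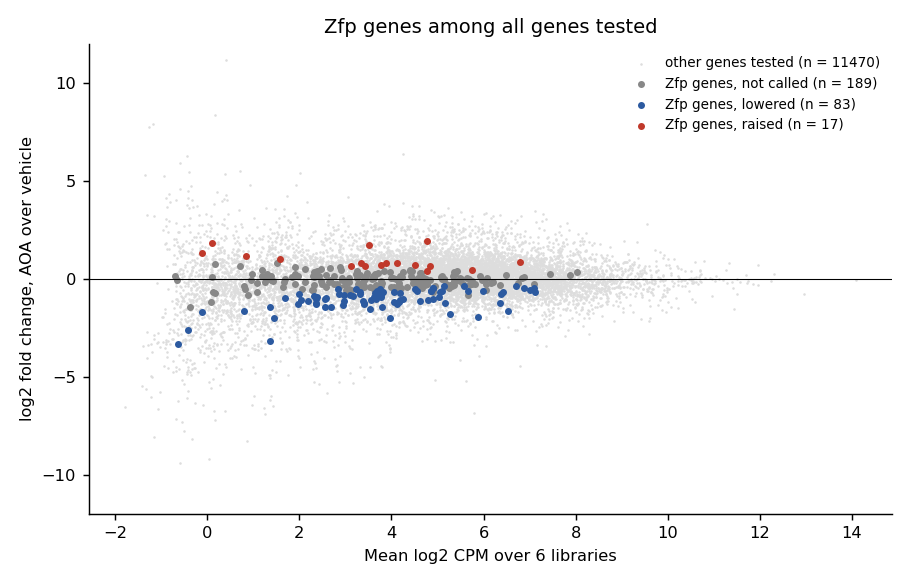
The log2 fold change of AOA over vehicle (vertical axis) is plotted against the mean log2 CPM over 6 libraries (horizontal axis) for each gene tested, with other genes in light grey and Zfp genes in red where raised, blue where lowered and dark grey where not called. The 17 raised Zfp genes are few beside the 83 lowered ones, and most Zfp genes lie in a narrow band around and just below 0.

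The same imbalance was seen library by library. The 3 AOA libraries all lay above the 3 vehicle libraries in 30 Zfp genes (10.4%), against 31.0% of all genes tested, and all below them in 111 Zfp genes (38.4%), against 31.1%. Within mice, the median difference in log2 CPM between AOA and vehicle over the Zfp genes was -0.15 in mouse 1, -0.29 in mouse 2 and -0.30 in mouse 3, where it was -0.02, -0.00 and -0.03 over all genes tested. The level was lower with AOA in all 3 mice in 139 Zfp genes (48.1%) and higher in all 3 in 38 (13.1%), against 36.8% and 35.8% of all genes tested. Together the Zfp genes took 0.811%, 0.782% and 0.779% of all counts in the vehicle libraries of mice 1, 2 and 3, and 0.685%, 0.670% and 0.668% in their AOA libraries. Every AOA library thus held a smaller share of Zfp RNA than every vehicle library.

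Zfp genes were less abundant than the average gene and somewhat longer. Their median mean log2 CPM was 3.71, against 4.93 over all genes tested, and their median number of counts per library was 237, against 577. The median SE of the log2 fold change was nevertheless close, at 0.20 for Zfp genes and 0.19 for all genes tested. The Zfp genes were therefore split into 3 equal parts by mean level, and each part was set beside the other genes of the same range of levels. Between 0.612 and 8.46 CPM, 4 of 97 Zfp genes were raised (4.12%) and 26 were lowered (26.8%), where 16.2% and 32.3% of the other genes were. Between 8.46 and 23.6 CPM, 8 of 96 Zfp genes were raised (8.33%) and 31 lowered (32.3%), where 28.1% and 26.4% of the other genes were. Between 23.6 and 259 CPM, 5 of 96 Zfp genes were raised (5.21%) and 26 lowered (27.1%), where 31.8% and 23.8% of the other genes were. The share raised was thus lower than that of other genes of like level in each range, while the share lowered was below that of the other genes in the lowest range and above it in the higher ranges.

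**Figure D2:**
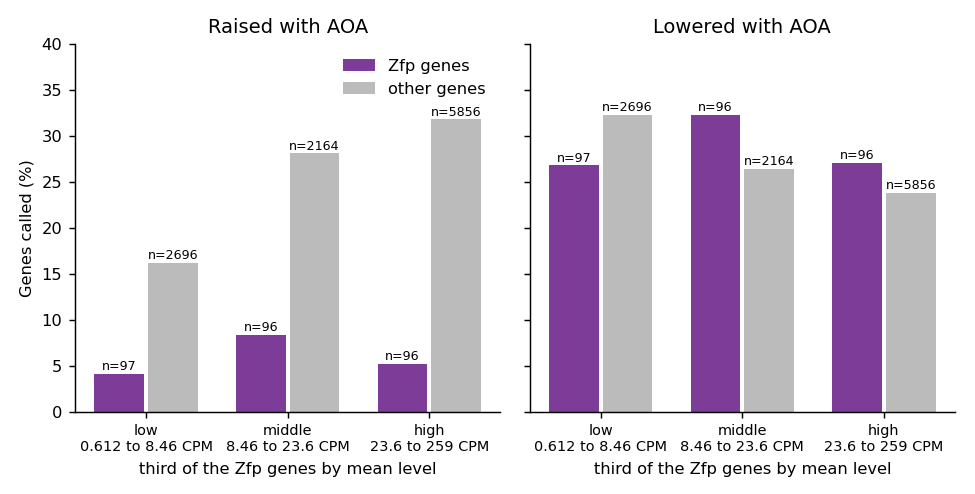
Bars give the percentage of genes raised (left) and lowered (right) with AOA in 3 ranges of mean CPM that each hold an equal part of the Zfp genes, with Zfp genes in purple, other genes tested in grey and the number of genes above each bar. Raised Zfp genes make up 4.12%, 8.33% and 5.21% of the 3 ranges and raised other genes 16.2%, 28.1% and 31.8%, whereas the bars for lowered genes are of similar height.

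In these libraries long genes were raised less often than short ones, so the Zfp genes were also set beside genes of like length, a split chosen after the values had been seen. The deposited length of the Zfp genes had a median of 3504 bases, against 2900 over all genes tested. The genes were split into 4 length classes that each hold about the same number of all genes, bounded at 1835, 2900 and 4397 bases. From the shortest to the longest class, 1 of 17 (5.88%), 6 of 79 (7.59%), 9 of 113 (7.96%) and 1 of 80 (1.25%) Zfp genes were raised. Of all genes, 31.5%, 27.9%, 26.7% and 18.9% were. In the same order, 29.4%, 32.9%, 24.8% and 30.0% of the Zfp genes were lowered, and 20.7%, 26.0%, 28.2% and 32.2% of all genes. The lower share of raised Zfp genes was thus present in every length class, though the shortest class held only 17 Zfp genes.

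KRAB genes and the other Zfp genes were lowered in similar shares and had similar medians. Of 170 KRAB genes tested, 6 were raised (3.53%) and 48 lowered (28.2%), with a median log2 fold change of -0.27. Of 118 Zfp genes without a KRAB A box, 11 were raised (9.32%) and 35 lowered (29.7%), with a median of -0.24. Over all genes tested 26.2% were raised and 26.8% lowered, so the lowered shares were near that of all genes. The difference between the shares of KRAB and other Zfp genes was not tested. The share of raised genes was also small in Zfp genes with long rows of fingers, in classes set after the values had been seen. Of 39 tested genes with 1 to 4 fingers, 6 were raised and 11 lowered, and of 8 with 0 fingers by the C2H2 pattern, 3 were raised and 3 lowered. With 5 to 9 fingers 2 of 78 genes were raised and 23 lowered, with 10 to 14 fingers 5 of 101 were raised and 29 lowered, and with at least 15 fingers 1 of 62 was raised and 17 lowered. The 38 genes with 10 or more fingers and no KRAB A box had 1 raised (2.63%) and 12 lowered (31.6%).

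**Figure D3:**
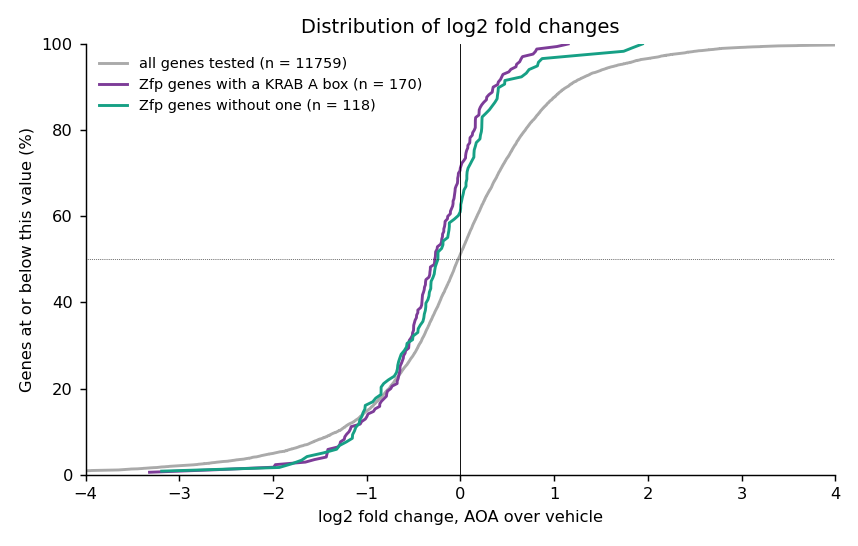
Each line gives the percentage of genes (vertical axis) at or below a log2 fold change of AOA over vehicle (horizontal axis), for all genes tested in grey, KRAB Zfp genes in purple and other Zfp genes in green. Both Zfp lines run close to the grey line at the lower quartiles, which are -0.64, -0.67 and, for all genes, -0.59. They part from it while still on the lowered side, with medians of -0.27, -0.24 and, for all genes, -0.02. Negative values make up 71.2% of the KRAB genes, 61.0% of the other Zfp genes and 51.2% of all genes.

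AOA replicate 1 stood apart in the KRAB genes. Their summed level was 2999, 2849 and 2942 CPM with vehicle, in the order of the mice, and 2640, 2143 and 2194 CPM with AOA. The groups did not overlap, but the first AOA library lay nearer to the vehicle libraries than to the other 2. By mouse, the median difference in the KRAB genes was -0.10, -0.44 and -0.37 in mice 1, 2 and 3. The summed level of the other Zfp genes was 5285, 4701 and 5058 CPM with vehicle and 4279, 4474 and 4385 CPM with AOA, again without overlap, and their median differences were -0.44, -0.08 and -0.21. Here mouse 1 had the larger difference, opposite to its place among the KRAB genes. Without AOA replicate 1, 68 of 170 KRAB genes were lowered and 3 raised (1.76%), where 25.0% of all genes in that fit were lowered and 25.1% raised.

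Other zinc finger families held few raised genes too, and their lowered shares varied. These counts are small, and the differences between families and from the 26.2% raised and 26.8% lowered over all genes tested were not tested. Of 25 tested genes whose symbol adds letters to a Zfp number, 0 were raised by edgeR and 7 lowered (28.0%), with a median log2 fold change of -0.30. In this set 1 gene was higher at an unadjusted p under 0.05, 0 were raised by DESeq2, 1 by limma voom and 1 with the replicate block. Of 17 Zscan and Zkscan genes, which pair fingers with a SCAN domain, 0 were raised by edgeR, DESeq2 or limma voom (1 at an unadjusted p under 0.05) and 10 lowered (58.8%), with a median of -0.57. Of 36 Zbtb genes, which pair fingers with a BTB domain, 4 were raised (11.1%) and 15 lowered (41.7%), with a median of -0.39. Of 17 Klf and Sp genes with at least 1 C2H2 finger, 2 were raised (11.8%) and 5 lowered (29.4%), with a median of 0.05. The symbol rule also takes Sp100, Sp110 and Sp140, which held 0 fingers by the pattern and belong to another family, and with them 2 of 20 were raised and 7 lowered.

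Described next are the 8 most raised and the 8 most lowered Zfp genes, taken from those that were called, moved alike in 3 of 3 mice and reached a mean of 5 CPM in either group. Positions are those of RefSeq on GRCm38.p6. To show what lies before the genes with the largest changes, the promoters of 4 of them follow, from RefSeq's GRCm38.p6 starts, each with 250 bases before the transcript's start and the first 20 after it. Zfp367 and Zfp365 had the largest rises of these genes, Zfp512 the smallest adjusted p among the lowered ones, and Zfp36 is the best-studied member. Capitals mark matches to TTTNNCGC on either strand, a motif that E2F factors are known to bind. The windows lie at chr13:64153180-64153449 (minus strand) for Zfp367, chr10:67912643-67912912 (minus strand) for Zfp365, chr5:31452186-31452455 (plus strand) for Zfp512 and chr7:28379209-28379478 (minus strand) for Zfp36.
Zfp367: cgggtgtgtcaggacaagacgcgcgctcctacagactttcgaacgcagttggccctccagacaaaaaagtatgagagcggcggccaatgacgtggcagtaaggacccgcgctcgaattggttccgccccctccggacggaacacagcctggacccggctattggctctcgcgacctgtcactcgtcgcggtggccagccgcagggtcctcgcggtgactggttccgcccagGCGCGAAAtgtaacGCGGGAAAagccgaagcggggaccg
Zfp365: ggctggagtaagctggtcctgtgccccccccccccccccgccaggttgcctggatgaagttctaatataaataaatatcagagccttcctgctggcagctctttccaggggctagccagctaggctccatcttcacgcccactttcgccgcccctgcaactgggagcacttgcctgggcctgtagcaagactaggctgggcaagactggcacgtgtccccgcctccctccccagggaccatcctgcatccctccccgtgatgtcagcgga
Zfp512: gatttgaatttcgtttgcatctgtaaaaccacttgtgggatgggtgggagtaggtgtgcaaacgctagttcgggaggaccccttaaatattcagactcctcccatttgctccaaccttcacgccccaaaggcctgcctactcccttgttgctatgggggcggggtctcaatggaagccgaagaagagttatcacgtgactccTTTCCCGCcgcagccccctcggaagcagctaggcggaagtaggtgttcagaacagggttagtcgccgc
Zfp36: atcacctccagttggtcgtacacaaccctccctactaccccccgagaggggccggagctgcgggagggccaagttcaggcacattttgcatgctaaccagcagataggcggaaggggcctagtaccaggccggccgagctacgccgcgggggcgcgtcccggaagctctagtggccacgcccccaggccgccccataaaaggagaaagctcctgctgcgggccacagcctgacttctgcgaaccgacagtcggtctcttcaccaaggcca

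The search covered 300 bases, 250 before and 50 after the start, on both strands, and the motifs and promoters were chosen after the values had been seen. The Zfp367 window held 2 matches to TTTNNCGC, which begin at positions -19 and -5 from the start and do not overlap, and 3 matches to CCAAT and 1 to TGACG. The Zfp512 window held 1 match to TTTNNCGC, at position -48, and the windows of Zfp365 and Zfp36 held 0. A raised and a lowered gene thus both carried it. TTTNNCGC was present in 5.93% of the 27025 genes with a promoter in the table, in 10.1% of the genes tested, in 9.88% of the 243 Zfp genes tested that had one, in 2 of 9 raised Zfp genes and in 7 of 74 lowered ones (9.46%). CCAAT was present in 41.1% of all genes with a promoter, in 43.0% of the genes tested and in 51.4% of the Zfp genes tested. TGACG was present in 23.0%, 36.3% and 36.2% of the same groups. With 9 raised genes these shares are a description only.

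Zfp367 (chr13:64133022-64153199), a C2H2 factor with 2 fingers by the pattern, had the largest rise among these genes. Its level was 11.6, 17.9 and 12.6 CPM with vehicle and 51.6, 53.3 and 57.4 CPM with AOA. The AOA libraries were close together and all far above the vehicle libraries. This gave a log2 fold change of 1.94 ± 0.18 (SE), with an adjusted p of 5.73e-05 by edgeR. Of its exon bases 10.9% overlap a gene on the other strand, and whether the counting used strand is not known here.

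Zfp365 (chr10:67886105-67912662), whose human counterpart is known for a part in genome stability, held no finger by the C2H2 pattern. Its level was 6.90, 5.33 and 6.35 CPM with vehicle and 20.1, 20.0 and 21.9 CPM with AOA, again well separated. It rose by a log2 fold change of 1.74 ± 0.18 (SE), with an adjusted p of 8.35e-05 by edgeR.

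Zfp706 (chr15:36997027-37007402) encodes a small protein with 1 finger. It was the most abundant raised member, at 79.4, 85.9 and 81.3 CPM with vehicle and 180, 133 and 138 CPM with AOA. The first AOA library was the highest, and all 3 lay above the vehicle libraries. The log2 fold change was 0.87 ± 0.15 (SE), with an adjusted p of 0.00120 by edgeR.

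The other 5 raised genes changed by less than 1 on the log2 scale. Zfp41 (chr15:75615200-75627448) was at 7.78, 6.97 and 7.82 CPM with vehicle and 12.8, 12.3 and 15.1 CPM with AOA, a log2 fold change of 0.83. Zfp422 (chr6:116624016-116628999) was at 17.8, 16.1 and 19.1 CPM with vehicle and 30.0, 27.8 and 30.3 CPM with AOA, a log2 fold change of 0.73. Zfp326 (chr5:105876556-105915818), part of a complex that links transcription by RNA polymerase II to splicing, was at 12.3, 9.83 and 9.66 CPM with vehicle and 16.1, 18.2 and 17.4 CPM with AOA, a log2 fold change of 0.70. In each of these genes the groups did not overlap. Zfp764 (chr7:127379762-127406835), the KRAB gene among the 8, was at 10.2, 11.3 and 11.9 CPM with vehicle and 22.8, 17.4 and 18.3 CPM with AOA, a log2 fold change of 0.80. Of its transcript's windows of 75 bases, 13.2% also occur in another gene. Zfp593 (chr4:134243306-134245591), whose counterparts act in the assembly of the large ribosomal subunit, was at 12.3, 14.7 and 12.5 CPM with vehicle and 28.1, 21.8 and 19.9 CPM with AOA, a log2 fold change of 0.82. Its values are uncertain, as 61.5% of its windows occur in another gene and 77.9% of its exon bases overlap one on the other strand. The adjusted p by edgeR of these 5 genes ran from 0.00233 (Zfp422) to 0.00779 (Zfp326).

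The 6 raised KRAB genes, named here after their values had been seen, were Zfp101, Zfp324, Zfp472, Zfp599, Zfp764 and Zfp934. Zfp472 had the highest level per length of these after treatment, at 15.4 CPM per kb, with 24.8, 24.3 and 19.9 CPM with vehicle and 44.8, 31.4 and 31.4 CPM with AOA. Zfp934 was the exception to separation, with 0.952, 1.65 and 0.923 CPM with vehicle and 3.77, 1.64 and 2.42 CPM with AOA, so that its groups overlapped, and 18.1% of its windows occur in another gene. Its adjusted p of 0.0397 (edgeR) rose to 0.159 without AOA replicate 1 and stayed above the threshold without AOA replicate 3, vehicle replicate 1 or vehicle replicate 3 (0.0788, 0.111 and 0.118). Zfp472 had an adjusted p of 0.0152 (edgeR), and of 0.0521 without vehicle replicate 3.

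Zfp768 (chr7:127342795-127345314), a factor with 10 fingers and no KRAB A box, fell the most among the lowered genes of the rule. It had 105, 114 and 119 counts with vehicle and 12, 16 and 20 with AOA, which is 8.33, 7.23 and 6.46 CPM against 0.552, 0.846 and 1.01 CPM. Each AOA library was far below each vehicle library. The log2 fold change was -3.19 ± 0.31 (SE), with an adjusted p of 6.48e-05 by edgeR.

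Zfp512 (chr5:31452421-31481754), with 3 fingers by the pattern, fell from a much higher level. It was at 135, 106 and 105 CPM with vehicle and 30.8, 30.1 and 29.4 CPM with AOA. The AOA libraries were almost equal. Its log2 fold change was -1.93 ± 0.14 (SE), with an adjusted p of 2.00e-05 by edgeR.

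Zfp36 (chr7:28376784-28379228) encodes tristetraprolin, which binds AU-rich elements of cytokine mRNAs and leads to their decay, with fingers of the CCCH kind that the C2H2 pattern does not count. Its level was 202, 105 and 197 CPM with vehicle and 46.5, 67.7 and 47.8 CPM with AOA. Vehicle replicate 2 was the lowest of its group and AOA replicate 2 the highest of its own, and the groups still did not overlap. The log2 fold change was -1.64 ± 0.26 (SE), with an adjusted p of 8.46e-04 by edgeR. Per kb of transcript it was the most abundant Zfp gene with vehicle, at 95.1 CPM per kb, and was at 30.6 CPM per kb with AOA.

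Among the other lowered genes, 3 were KRAB genes. Zfp949 (chr9:88548020-88571086) was at 36.0, 25.5 and 32.0 CPM with vehicle and 9.24, 7.03 and 7.46 CPM with AOA, a log2 fold change of -1.97. Zfp316 (chr5:143249695-143270031) was at 6.19, 4.56 and 5.32 CPM with vehicle and 0.873, 2.01 and 1.16 CPM with AOA, a log2 fold change of -1.99. Zfp169 (chr13:48480763-48513493) fell from 19.7 ± 3.43 to 6.68 ± 0.850 CPM (SD, n = 3), a log2 fold change of -1.56. In these 3 genes every AOA library lay below every vehicle library. Zfp219 (chr14:52006075-52021140), known as a partner of Sox9 in cartilage, was at 92.1, 62.2 and 63.9 CPM with vehicle and 17.4, 24.2 and 21.0 CPM with AOA, a log2 fold change of -1.80, with 12.7% of its exon bases overlapping a gene on the other strand. Zfp692 (chr11:58307057-58315145) was at 29.8, 18.4 and 21.2 CPM with vehicle and 9.06, 7.40 and 8.68 CPM with AOA, a log2 fold change of -1.46. The adjusted p by edgeR of these 5 genes ran from 6.70e-05 (Zfp949) to 0.00140 (Zfp316), and their groups did not overlap.

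**Figure D4:**
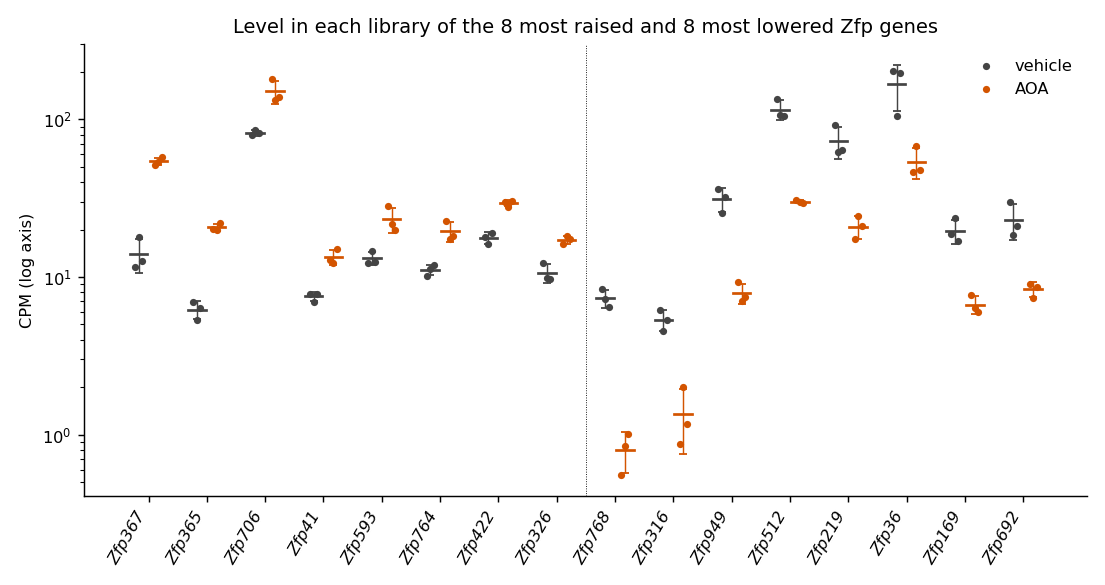
Points give the level in CPM (log axis) of each library for the 8 most raised (left of the dotted line) and the 8 most lowered (right) Zfp genes, vehicle in dark grey and AOA in orange, with the mean as a bar and the SD (n = 3) as whiskers. In each of the 16 genes the groups are separated, from Zfp326 with 9.66 to 12.3 CPM against 16.1 to 18.2 CPM to Zfp768 with 6.46 to 8.33 CPM against 0.552 to 1.01 CPM.

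Some larger fold changes rested on few counts. Zfp870, a KRAB gene named here after its values were seen, had 21, 32 and 18 counts with vehicle and 3, 3 and 3 with AOA, with a log2 fold change of -3.32 ± 0.48 (SE). Zfp750 had 1, 24 and 5 counts with vehicle and 40, 43 and 55 with AOA, with a log2 fold change of 1.84 ± 0.69 (SE) and an adjusted p of 0.0470 by edgeR, and its vehicle libraries differed widely. With vehicle replicate 2 left out the log2 fold change was 3.57, with an adjusted p of 3.83e-04 (edgeR), and without any other library it was not called, with an adjusted p of 0.0912 to 0.131.

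Zfp genes with a known role in the cell were counted separately. Of a list of 28 such genes, 22 were in the table and tested, of which 1 was raised (4.55%), 5 were lowered (22.7%) and 16 were not called (72.7%). Among all Zfp genes tested 65.4% were not called, and 26.2% and 26.8% of all genes tested were raised and lowered, so the share lowered was near that of all genes. The others (Zfp683, Zfp532, Zfp57, Zfp42, Zfp423 and Zfp521) were not analysed here. The raised gene was Zfp593 and the lowered ones Zfp36, Zfp592, Zfp598, Zfp622 and Zfp687.

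Of the lowered genes, Zfp622 and Zfp598 encode proteins that act on ribosomes. Zfp622, whose counterparts release an assembly factor from the large ribosomal subunit, was at 147, 104 and 127 CPM with vehicle and 48.9, 56.2 and 57.4 CPM with AOA (126 ± 21.3 against 54.2 ± 4.60, SD, n = 3). The groups were well apart, with a log2 fold change of -1.22 ± 0.16 (SE). Zfp598, the ubiquitin ligase that marks collided ribosomes, was at 123, 108 and 96.9 CPM with vehicle and 59.9, 70.5 and 62.5 CPM with AOA, again without overlap, with a log2 fold change of -0.77 ± 0.14 (SE). Their adjusted p by edgeR was 2.76e-04 and 0.00164.

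Zfp592 and Zfp687, known as partners in one chromatin complex, were both lowered. Zfp592 was at 181, 152 and 198 CPM with vehicle and 88.6, 122 and 122 CPM with AOA, with a log2 fold change of -0.67 ± 0.17 (SE) and an adjusted p of 0.00877 by edgeR. Zfp687 was at 37.9, 33.4 and 36.3 CPM with vehicle and 20.2, 25.9 and 25.0 CPM with AOA, with a log2 fold change of -0.60 ± 0.15 (SE) and an adjusted p of 0.00821 by edgeR. In both the groups did not overlap, and AOA replicate 1 was the lowest library.

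Of the 4 Zfp genes with the highest mean CPM, Zfp592 was lowered and the others were not called. Zfp207, which binds spindle microtubules and loads Bub3 at kinetochores, was at 208, 256 and 224 CPM with vehicle and 347, 272 and 268 CPM with AOA, with a log2 fold change of 0.37 ± 0.16 (SE) and an adjusted p of 0.0755 by edgeR. Its groups did not overlap, and without vehicle replicate 2 its adjusted p was 0.0274. Zfp106, an RNA-binding protein, was at 202, 239 and 211 CPM and 209, 283 and 271 CPM, a log2 fold change of 0.22, with 23.9% of its windows in another gene and 26.1% of its exon bases overlapping one on the other strand. Zfp91, a ubiquitin ligase of non-canonical NF-kB signalling, was at 169, 156 and 160 CPM and 170, 196 and 202 CPM, a log2 fold change of 0.23. For these genes the adjusted p by edgeR was 0.257 and 0.163. Without AOA replicate 1, the adjusted p was 0.0406 for Zfp106 and 0.0364 for Zfp91. With the gene length trend removed both were called, with log2 fold changes of 0.43 (adjusted p 0.0120, edgeR) for Zfp106 and 0.35 (0.0190) for Zfp91, and with the replicate block added to that fit they were 0.43 (0.0166) and 0.35 (0.0387).

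Zfp318, needed for IgD expression in B cells, was at 47.6, 25.0 and 43.3 CPM with vehicle and 20.1, 30.9 and 22.4 CPM with AOA, with a log2 fold change of -0.66 ± 0.25 (SE) and an adjusted p of 0.0529 by edgeR. Replicate 2 was the lowest vehicle library and the highest AOA library, as for Zfp36, and the groups overlapped. Its call depended on the method and on single libraries, with an adjusted p of 0.0306 by DESeq2 and, by edgeR, 0.0438 at 10 CPM, 0.00404 without vehicle replicate 2 and 0.0281 without AOA replicate 2. Zfp335, a regulator of T cell development in the thymus, was at 82.4, 68.0 and 80.7 CPM with vehicle and 60.6, 79.2 and 70.7 CPM with AOA, a log2 fold change of -0.13. Of its windows 14.5% occur in another gene, and 28.3% of its exon bases overlap one on the other strand. Zfp451, a SUMO ligase, was at 52.4, 41.7 and 41.4 CPM with vehicle and 34.7, 37.3 and 34.5 CPM with AOA, a log2 fold change of -0.35 with an adjusted p of 0.0665 by edgeR, and of 0.0453 at 10 CPM.

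Several further genes of the list were not called, among them factors that bind many promoters. Zfp148 had a log2 fold change of 0.10 ± 0.12 (SE), Zfp281 of -0.13 ± 0.12 (SE), Zfp384 of 0.06 ± 0.13 (SE) and Zfp143 of -0.29 ± 0.19 (SE). Zfp131 had a log2 fold change of 0.16 and Zfp217 of -0.24. Zfp410, known as an activator of Chd4, was at 40.3, 36.9 and 38.9 CPM with vehicle and 48.8, 42.5 and 37.0 CPM with AOA, a log2 fold change of 0.14. Zfp830, a nuclear protein linked to splicing, was at 22.1 ± 1.58 CPM with vehicle and 22.1 ± 0.892 CPM with AOA (SD, n = 3), a log2 fold change of 0.00 ± 0.14 (SE).

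The tested KRAB genes on the list of genes with a known role were also not called. Zfp809, which directs the silencing of retroviral DNA, was at 20.0, 24.0 and 17.4 CPM with vehicle and 25.5, 22.6 and 20.4 CPM with AOA, a log2 fold change of 0.16 ± 0.17 (SE). Zfp568, a repressor of a placental Igf2 transcript, had a log2 fold change of -0.19 ± 0.18 (SE). In both genes the groups overlapped. Zfp708 was at 2.86, 1.27 and 2.39 CPM with vehicle and 4.92, 2.70 and 3.78 CPM with AOA, a log2 fold change of 0.81, with an adjusted p of 0.0907 by edgeR and of 0.0359 with the mouse as a replicate block. Its values are uncertain, as 94.3% of its windows occur in another gene.

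The genes of the co-repressor that KRAB proteins recruit, and of its chromatin partners, were also counted. Of 29 listed genes, which take in general DNA and H3K9 methylation factors, 28 were in the table and tested (Atf7ip2 was not analysed here). In this set 14 were raised, 4 were lowered and 10 were not called, with a median log2 fold change of 0.41, beside 26.2% and 26.8% of all genes tested that were raised and lowered. The set was abundant, with a median mean log2 CPM of 6.61 against 4.93, and 31.8% of the other genes between 23.6 and 259 CPM were raised. Trim28, the co-repressor itself, was at 355, 300 and 331 CPM with vehicle and 356, 517 and 482 CPM with AOA. Its first AOA library was hardly above the vehicle libraries, and the log2 fold change was 0.46 ± 0.17 (SE), with an adjusted p of 0.0489 by edgeR. This call did not hold with the mouse as a replicate block (0.0711), with limma voom (0.0505), at 10 CPM (0.0573) or without any library but AOA replicate 1 (0.0719 to 0.167). Setdb1 was at 89.8, 67.3 and 82.5 CPM with vehicle and 63.9, 79.5 and 72.6 CPM with AOA, a log2 fold change of -0.15 that was not called. The 6 largest rises were those of Uhrf1 (log2 fold change 3.23), Cbx5 (2.11), Rbbp7 (2.05), Suv39h2 (2.00), Suv39h1 (1.79) and Dnmt1 (1.75), whose products bind or write H3K9 methylation, carry histones or maintain DNA methylation. Of these, Dnmt1 and Uhrf1 are also known to act at replication forks. The lowered genes were Chd3 (-0.78) and Mta1 (-0.72), of the NuRD complex, Atf7ip (-0.52), a partner of Setdb1, and Ehmt2 (-0.43), an H3K9 methyltransferase. In Atf7ip the groups overlapped, and its adjusted p of 0.0473 (edgeR) was 0.0586 with the replicate block, 0.0563 with the gene length trend removed, 0.0582 with no filter on low counts, 0.146 and 0.106 without AOA replicates 1 and 3, and 0.206 and 0.129 without vehicle replicates 1 and 3. That of Ehmt2, 0.0346 (edgeR), was 0.0541 and 0.0794 without AOA replicates 1 and 2, and 0.137 and 0.131 without vehicle replicates 1 and 3.

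Many Zfp genes lie side by side in the genome, and 7 clusters held at least 8 tested Zfp genes with gaps of at most 500 kb, a definition set after the values had been seen. These clusters held 90 Zfp genes, of which 4 were raised (4.44%) and 20 lowered (22.2%), and outside them 13 of 199 were raised (6.53%) and 63 lowered (31.7%), beside 26.2% and 26.8% of all genes tested. The cluster at chr13:67038594-67827000 held 18 KRAB genes, of which 0 were raised by edgeR, DESeq2 or limma voom (1 at an unadjusted p under 0.05) and 1 (Zfp429) was lowered, with a median log2 fold change of 0.14. With the mouse as a replicate block, Zfp708 (log2 fold change 0.83, adjusted p 0.0359) and Zfp748 (0.43, 0.0482) of this cluster were called raised and Zfp85 (-0.71, 0.0128) lowered. The values of Zfp708 are uncertain, as 94.3% of its windows occur in another gene and 96.4% of its exon bases overlap one on the same strand, and 20.1% of the windows of Zfp85 occur in another gene. Zfp429 is also among the genes with over 10% of their windows in another gene. The cluster at chr17:21008941-23564226 held 20 KRAB genes, of which 0 were raised by edgeR, DESeq2, limma voom or at an unadjusted p under 0.05, and 5 were lowered (Zfp677, Zfp943, Zfp944, Zfp945 and Zfp948), with a median of -0.33. The second cluster of the same chromosome, at chr17:32765496-33631716, held genes that moved in opposite directions, with Zfp101 and Zfp472 raised and Zfp799, Zfp870, Zfp871 and Zfp952 lowered among 10. At chr7:127233061-127885996, Zfp764 was raised and Zfp553, Zfp629, Zfp688 and Zfp768 were lowered among 10. At chr7:24081877-24515682, Zfp428 was raised and Zfp93 lowered among 8. At chr7:29768552-30169775, Zfp30, Zfp260 and Zfp420 were lowered among 15, and at chr6:47835633-48621548, Zfp467 and Zfp775 among 9. Thus 3 of the clusters held both raised and lowered genes in the main fit, and the chromosome 13 cluster also did with the replicate block.

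**Figure D5:**
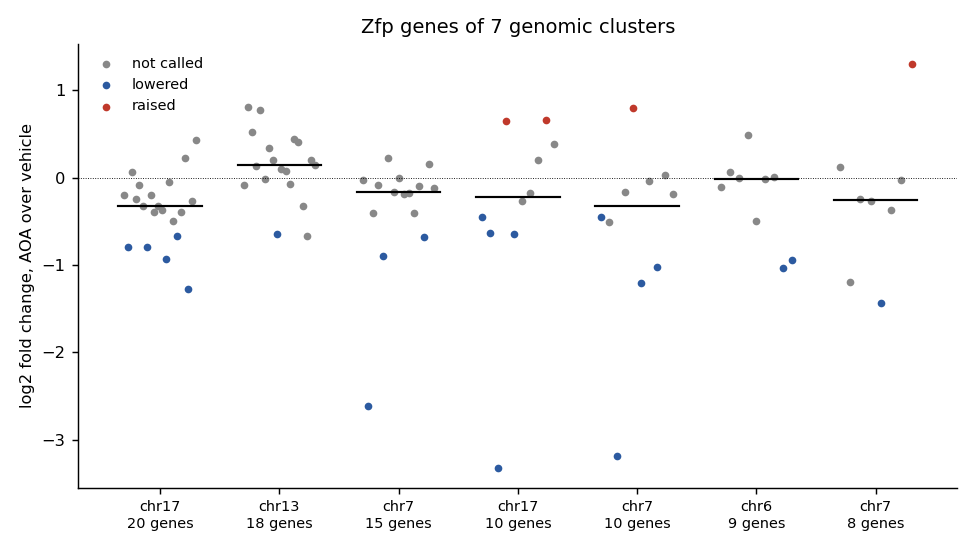
Each point is the log2 fold change of AOA over vehicle (vertical axis) of a Zfp gene in one of 7 genomic clusters (horizontal axis, with chromosome and number of genes), in the order of position and coloured by call, with the cluster's median as a black bar. The chromosome 13 cluster of 18 genes has its median above 0, at 0.14, and the other clusters have theirs between -0.33 and -0.02.

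Zfp genes share sequence with other genes, by resemblance or by overlap in the genome, which limits how surely a read belongs to one of them. In 51 Zfp genes over 10% of the windows of 75 bases in their transcripts also occurred in another gene, on either strand, and in 122 no window did. Some of the 51 overlap another gene, as Zfp784 does, with 94.7% of windows shared and 94.8% of exon bases overlapped on the other strand. Others do not, as Zfp433, with 80.5% of windows shared and no exon overlap. Without those 51, a limit set after the values had been seen, 13 of 238 genes were raised (5.46%) and 73 lowered (30.7%), beside 26.2% and 26.8% of all genes tested. In 27 Zfp genes over 10% of the exon bases overlapped a gene on the other strand. Single calls varied between fits: 9 of the 17 raised and 53 of the 83 lowered Zfp genes were called in every alternative fit that kept them, the fold limit aside, and 0 were called in the opposite direction in any.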

How the data were processed

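RNA of mouse CD8+ T cells (3 vehicle and 3 AOA libraries) was compared. The deposited values are raw counts per gene, with a length for each gene. The submitters' processing notes name bcl2fastq, STAR, featureCounts, DESeq2 and mm10. The annotation, the strand setting and any gene filter, not given in the sources used here, could shift single genes. Per the labels, samples were grouped by treatment and numbered by mouse donor, and 0 columns of values lacked a sample.

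The test was that of edgeR 4.0.16 in R 4.3.3, with filterByExpr (minimum count 10), TMM and the robust quasi-likelihood fit across all genes, Benjamini-Hochberg adjustment and a threshold of 0.05. The SE is the log2 fold change divided by the square root of the test's F. A prior count of 2 entered log2 CPM. The smallest p of an exact permutation test of 3 against 3 libraries is 0.1, so only the model across genes was used. The steps were tested on simulated data. Alternatives were DESeq2 1.42.0, limma 3.58.1 (voom), other size factors, other filters, a fold limit, a gene length trend removed, the mouse as a replicate block, and leaving out each library. The pairing comes from the donor numbers of the labels, and deviations of paired libraries from their group means correlated across genes with r of 0.0868, 0.189 and 0.194. The block was added to the length trend, and genes with shared sequence left out, after the data had been seen.

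The Zfp genes, the gene lists and the tests were chosen with earlier results of these data known. Named are the 8 raised and 8 lowered Zfp genes with the largest log2 fold change that were called, reached a mean of 5 CPM in either group and moved alike in 3 mice, the 4 with the highest mean CPM, a list with textbook roles, and up to 6 called KAP1 partners per direction. KRAB A boxes (at least 15 of 24 positions matched, and at most 13 in genes not counted) and C2H2 fingers were searched in translated GENCODE vM21 transcripts, not in RefSeq proteins as planned. The box pattern was adjusted on sequences, in 3 versions, and genes with an atypical box count among the others. Promoters came from RefSeq (GRCm38.p6) for 245 of 291 Zfp genes.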

Additional observations from a re-analysis of the deposited data

How the results depend on the processing

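The count of raised Zfp genes was 17, and 11 at a filter of at least 10 CPM in 3 libraries, 6 with a log2 fold change of at least 1 in size, and 10 to 22 with a library left out (10 without vehicle replicate 3). The count of lowered genes was 83, 39 with the fold limit, and 59 to 100 with a library left out. The share lowered was 34.6% of Zfp genes against 25.0% of all genes without AOA replicate 1, and 20.3% against 20.6% without vehicle replicate 1. In KRAB genes, 6 were raised (3 at 10 CPM, 2 with the fold limit, 3 to 8 with a library left out, where 3 came without AOA replicate 1 or vehicle replicate 3) and 48 lowered (20 with the fold limit, 34 to 68). In the other Zfp genes, 11 were raised (4 with the fold limit, 7 to 14, where 7 came without vehicle replicate 3) and 35 lowered (19 with the fold limit, 25 to 43). Of the KAP1 partners, 4 were lowered (7 at 10 CPM, 0 with the fold limit, 2 to 5, where 2 came without vehicle replicate 1 or 3), and 13 to 15 were raised with a library left out. With ranges of equal width, 7.41% of the Zfp genes in the lowest and 3.39% in the highest range were raised. Higher filters and fold limits admit fewer genes, and the cause of the other moves was not tested. Over all fits, the fold limit aside, 3.46% to 7.61% of Zfp genes and 21.3% to 29.6% of all genes were raised. The median log2 fold change was -0.32 to -0.22 with a library left out and -0.19 with the length trend removed.

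With the mouse as a replicate block, 18 Zfp genes were raised and 84 lowered. The paired fit lost 7 calls (Zfp12, Zfp35, Zfp267, Zfp292, Zfp330, Zfp516 and Zfp605) and gained 9 (Zfp708 and Zfp748 raised, and Zfp85, Zfp112, Zfp141, Zfp184, Zfp317, Zfp386 and Zfp984 lowered), and changed no other call of a Zfp gene, while Trim28 and Atf7ip lost theirs. The 37 Zfp genes of the naming rule kept their call, or the lack of one, in 538 of their alternative values and gained a call in 14, with 0 lost, and 9 of them missed the fold limit. Genes that were not called could change sign, as Zfp830 did, at -0.03 at 10 CPM and 0.09 without vehicle replicate 3.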
